A study of Homo sapiens with 12 samples.

Results

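The 38 genes described here are ATF4 and genes of the integrated stress response and the unfolded protein response, taken by gene symbol out of the 60660 genes quantified in each library. They fell into 7 transcription factors, 5 stress effectors and feedback genes, 8 genes of amino acid synthesis, 3 genes of mitochondrial one-carbon metabolism, 6 amino acid transporters, 1 tRNA exporter (XPOT) and 8 genes of protein folding in the endoplasmic reticulum (ER). All 38 passed the filter on low counts in every comparison. LNCaP, an androgen-sensitive prostate cancer cell line from a lymph node metastasis, and 22Rv1, a prostate cancer cell line from a xenograft that relapsed after castration, were given either piR-4447944 mimic, a made RNA that stands in for this PIWI-interacting RNA (piRNA), or the control NC-mimic, by lipid transfection. All cells were kept in androgen-deprived medium with 10% charcoal-stripped serum (CS-FBS), so androgen was depleted in every group. The 4 groups held 3 mRNA libraries apiece. Each line was 1 cell line, and while the study describes its experiments in general as repeated independently, its labels do not tie a library to a culture. P-values measure the spread between these libraries, which may be in part technical.

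When cells run short of amino acids, or when unfolded proteins collect in the ER, kinases phosphorylate the translation factor eIF2, general translation falls and the mRNA of ATF4 is translated more. ATF4 then raises the transcription of genes that make, import and charge amino acids, and of DDIT3 (CHOP), a transcription factor linked to cell death under stress. In parallel, the ER sensors IRE1 and ATF6 raise the chaperones of the ER through spliced XBP1 and cleaved ATF6. ATF4 is controlled to a large part by translation, and XBP1 by splicing, and neither step is read by the gene-level mRNA values used here.

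Short promoter elements to which these factors are known to bind are shown because the ER folding genes and the ATF4 targets are compared as groups. The windows are from the promoters of RefSeq (GRCh38.p14, from 250 bases before to 50 bases after a start), which hold 30 of the 38 members with 46 starts. Each motif was searched on both strands. Capitals mark the motif, each window is read along the strand of its gene, and the position and strand of the gene are given. The ER stress element (ERSE, CCAAT, 9 bases of any kind, CCACG), the site known for ATF6, was found in 3 members, that is 10.0% of those with a promoter, and in 0.0916% of the 27305 genes in the table.
HSPA5, chr9:125241386-125241414, minus: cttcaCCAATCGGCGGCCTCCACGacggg
XBP1, chr22:28800598-28800626, minus: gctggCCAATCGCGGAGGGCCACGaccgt
CRELD2, chr22:49918549-49918577, plus: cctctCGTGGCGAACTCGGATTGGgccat

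The related element ERSE-II (ATTGG, 1 base of any kind, CCACG) was found in 3 members, against 0.0696% of all genes, and HYOU1 held it at 2 places, of which the one nearer the start is shown.
HERPUD1, chr16:56932020-56932040, plus: cgccgATTGGGCCACGttggg
SDF2L1, chr22:21642109-21642129, plus: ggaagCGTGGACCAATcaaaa
HYOU1, chr11:119057269-119057289, minus: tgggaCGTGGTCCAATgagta

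The element of C/EBP and ATF4 (CARE, TGATGNAA) was found in 8 members, 26.7% of those with a promoter, and in 4.46% of all genes. The windows of ASNS, CHAC1, CEBPG and HERPUD1 are shown since ASNS, CHAC1 and CEBPG are textbook ATF4 targets and HERPUD1 held an ERSE-II as well. The XBP1 element (UPRE, TGACGTGG) was found in 2 members, ALDH18A1 and HYOU1, and in 0.927% of all genes, and in HYOU1 it overlapped the ERSE-II that is not shown. A match is a description of the letters and was not tested as a binding site.
ASNS, chr7:97872464-97872481, minus: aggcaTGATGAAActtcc
CHAC1, chr15:40953257-40953274, plus: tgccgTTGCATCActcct
CEBPG, chr19:33374066-33374083, plus: gcgtcTGATGCAAcctgc
HERPUD1, chr16:56931961-56931978, plus: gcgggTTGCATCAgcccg

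Libraries held 12161091 to 22179601 expected counts, the reads that RSEM assigned to genes, and a member had 19 to 30779 of them in a library. Levels are given in TPM (transcript share of the library, scaled for length), and fold changes come from the counts. The 22Rv1 libraries spread more (biological coefficient of variation 0.343) than those of LNCaP (0.0964), and in 22Rv1 the replicate 3 libraries of both groups stood apart. In the mimic replicate 3 library of 22Rv1, mitochondrially encoded genes took 2.23% of the counts, against 4.74% and 4.9% in replicates 1 and 2. The 8 genes known to rise in low oxygen that were listed for comparison were 3.96-fold (CA9) to 45.4-fold (ADM) above the mean of replicates 1 and 2 in that library, and 0.662-fold (EGLN3) to 4.61-fold (ADM) in the NC-mimic replicate 3 library. The luminal marker KLK3 was at 1828 to 2268 TPM in LNCaP and 24.8 to 53.4 TPM in 22Rv1, while the leukocyte marker PTPRC was at 0 to 0.35 TPM and the endothelial marker PECAM1 at 0 to 0.06 TPM.

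In LNCaP with NC-mimic the members spanned levels from 517 ± 52.5 TPM (SD, n = 3) for HSPA5, the main chaperone of the ER, to 0.8 ± 0.675 TPM for ALDH1L2, a mitochondrial folate enzyme. PHGDH, the first enzyme of serine synthesis, was second at 349 ± 38.9 TPM followed by ATF4 at 272 ± 12.6 TPM. At the low end stood SLC1A4 at 5.09 ± 0.32 TPM, SLC7A5 at 2.45 ± 0.585 TPM and PPP1R15A at 1.89 ± 0.175 TPM, 2 transporters and the phosphatase subunit that reverses the phosphorylation of eIF2. In 22Rv1 with NC-mimic the order was led by SHMT2, the mitochondrial serine hydroxymethyltransferase, at 513 ± 98.4 TPM and HSPA5 at 458 ± 99 TPM, which lay within their spreads. The lowest was CTH, an enzyme of cysteine synthesis, at 4.11 ± 1.2 TPM.

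**Figure D1:**
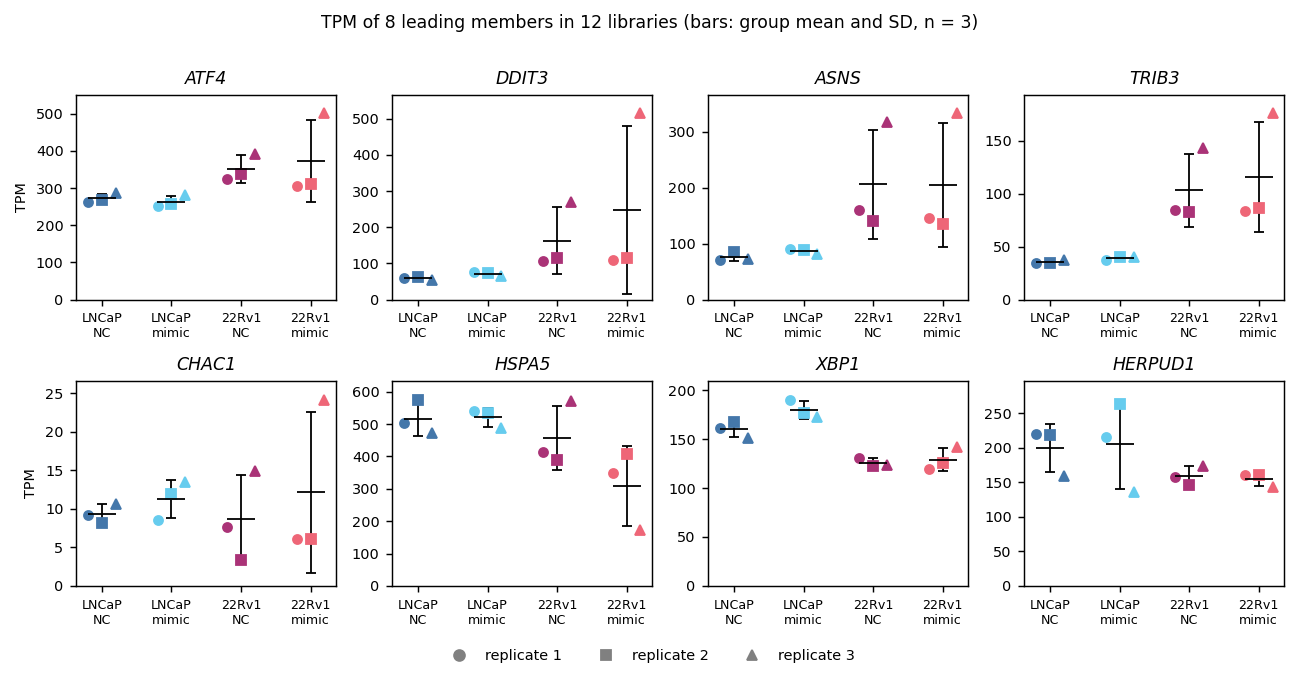
TPM of 8 leading members (y axis, linear from 0) in the 4 groups, 1 point per library with its replicate number by shape, and the group mean with SD (n = 3). DDIT3, ASNS, TRIB3 and CHAC1 of replicate 3 lay above replicates 1 and 2 in both 22Rv1 groups, while HSPA5 of replicate 3 was above them with NC-mimic and below them with the mimic.

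The first comparison asked whether piR-4447944 mimic changed these genes in LNCaP. DDIT3 and SLC7A11, the cystine transporter, were higher with the mimic at the cut-offs of the study (unadjusted p under 0.05 and absolute log2 fold change over 0.2), and no member was lower. The study set these cut-offs on shrunken DESeq2 fold changes, and here they were set on edgeR fold changes without shrinkage, which is the rule meant from here on. That is 2 of 38 members, where 1.38% of the 16244 genes tested were higher and 0.843% were lower. After adjustment over all genes no member had an adjusted p under 0.05, as for 0% of all genes, and 433 genes had an unadjusted p under 0.05.

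DDIT3 (ENSG00000175197, chr12:57516588-57521737, minus strand, hg38) was at 60.1, 63.2 and 55.1 TPM with NC-mimic and 75.6, 74.4 and 66.1 TPM with the mimic. The groups did not overlap, and the log2 fold change was 0.29 ± 0.09 (SE) while the unadjusted p was 0.00804, or 0.999 once adjusted over all genes, by edgeR's quasi-likelihood test. Exons of DDIT3 overlap those of ENSG00000285133 on its own strand and of MARS1 and MBD6 on the other, its expected counts were not all whole, and the strand used in counting is not given in the sources used here, so its level is uncertain to that extent. SLC7A11 (ENSG00000151012, chr4:138164097-138242349, minus strand) was at 14.7, 14.8 and 13.6 TPM with NC-mimic and 16.8, 17.7 and 17.6 TPM with the mimic. Its groups did not overlap either, and its log2 fold change was 0.26 ± 0.06 (SE), where the unadjusted p was 0.00126 and the adjusted one again 0.999 in edgeR. Its exons overlap the antisense gene SLC7A11-AS1. Both calls were lost when all 12 libraries shared 1 fit or when DESeq2 with shrunken fold changes, the procedure of the study, was used (0 members each).

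The other members of LNCaP moved little. ATF4 itself (ENSG00000128272, chr22:39519695-39522683, plus strand) was at 262, 269 and 286 TPM with NC-mimic and 251, 258 and 280 TPM with the mimic, overlapping groups with a log2 fold change of -0.04 ± 0.08 (SE). ASNS, asparagine synthetase, was at 71.3, 84.8 and 72.5 TPM against 90.5, 88.8 and 81.8 TPM, and its log2 fold change of 0.11 ± 0.07 did not meet the rule. TRIB3, a pseudokinase that feeds back on ATF4, was at 34.7, 34.5 and 37.8 TPM with NC-mimic and 37.8, 40.2 and 40.3 TPM with the mimic. The groups of TRIB3 were apart by TPM but overlapped by CPM (counts per library total), and its log2 fold change was 0.16 ± 0.09.

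CHAC1, which degrades glutathione, was at 9.18, 8.2 and 10.7 TPM with NC-mimic and 8.55, 11.9 and 13.5 TPM with the mimic, and its groups overlapped. HSPA5 was at 503, 576 and 474 TPM against 542, 534 and 487 TPM, a log2 fold change of 0.01 ± 0.07. XBP1, the factor of the IRE1 branch, was at 161, 168 and 151 TPM against 190, 177 and 172 TPM, apart by TPM but overlapping by CPM, with a log2 fold change of 0.08 ± 0.07. CHAC1, HSPA5 and XBP1 did not meet the rule. HERPUD1, of ER-associated degradation, was at 219, 219 and 159 TPM with NC-mimic and 215, 264 and 135 TPM with the mimic, so the spread within a group was far larger than the difference.

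By role, all 8 ER folding genes and all 5 stress effectors had a log2 fold change above 0 in LNCaP, with medians of 0.07 and 0.16, and over all members 32 of 38 did, with a median of 0.08 against -0.0027 for all genes tested. The groups did not overlap, with the mimic higher, for 4 members (DDIT3, SLC7A11, CRELD2 and MANF), where 4.11% of all genes did so, and for 0 members with the mimic lower, where 3.74% did. With 3 against 3 libraries the exact two-sided permutation test cannot go below p = 0.1. The count rested on 1 control library: without NC-mimic replicate 3, 10 members were higher (CEBPB, CHAC1, DDIT3, EIF4EBP1, NUPR1, PYCR1, SDF2L1, SLC1A5, SLC7A11 and TRIB3), where 6.05% of all genes met the rule in either direction. The median of the stress effectors was then 0.32, and the ER folding genes had 5 of 8 above 0 with a median of 0.12. DDIT3 and SLC7A11 met it without any 1 of the 6 libraries.

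In 22Rv1 no member met the rule, where 0.799% of the 16898 genes tested were higher and 0.681% lower with the mimic, 250 genes had an unadjusted p under 0.05 and 0% of genes had an adjusted p under 0.05. The values nonetheless split by role. All 8 ER folding genes had a log2 fold change below 0 with a median of -0.64, and all 5 stress effectors one above 0 with a median of 0.46, while the median over all genes was -0.0052. In bulk RNA, less RNA per cell and fewer cells with much of it cannot be told apart.

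**Figure D2:**
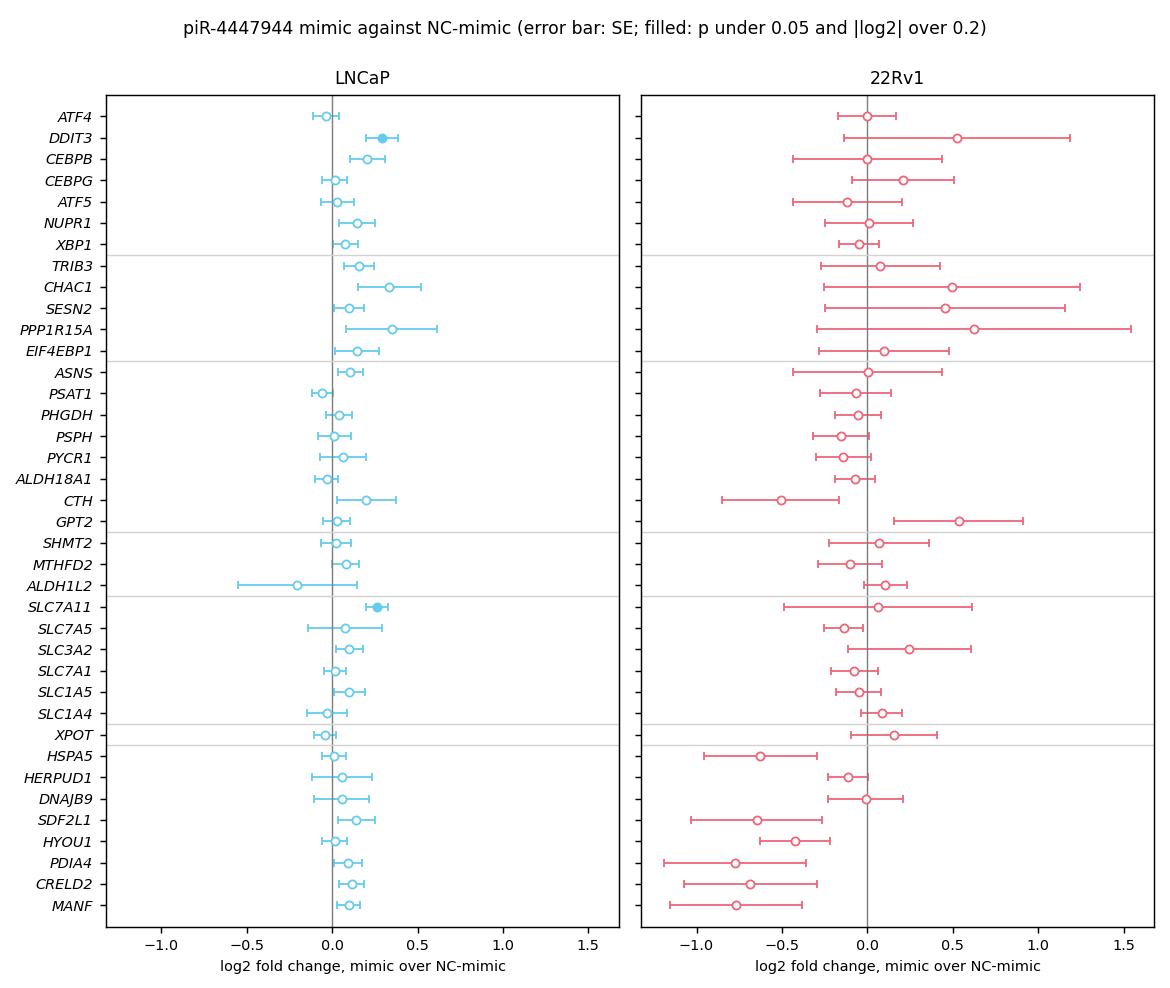
Log2 fold change of mimic over NC-mimic with its SE (x axis, shared by both panels) for the 38 members ordered by role, in LNCaP (left) and 22Rv1 (right). Filled points met the rule given above, which only DDIT3 and SLC7A11 in LNCaP did, and error bars in 22Rv1 were wide for stress effectors and ER folding genes.

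HSPA5 (ENSG00000044574, chr9:125234853-125241382, minus strand) was at 415, 388 and 571 TPM with NC-mimic and 350, 407 and 171 TPM with the mimic in 22Rv1. Its log2 fold change was -0.63 ± 0.33 (SE) with an unadjusted p of 0.0976, and its groups did not overlap by CPM although they did by TPM. CRELD2, an ER protein with the ERSE printed above, was at 209, 203 and 328 TPM with NC-mimic and 198, 200 and 72.3 TPM with the mimic, non-overlapping groups with a log2 fold change of -0.68 ± 0.39. The other ER folding genes with a log2 fold change below -0.4 were MANF and PDIA4 at -0.77 each, SDF2L1 at -0.65 and HYOU1 at -0.43. In each of these genes the mimic replicate 3 library was the lowest of its group and the NC-mimic replicate 3 library the highest of its own.

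HERPUD1 was at 157, 145 and 173 TPM with NC-mimic and 160, 160 and 144 TPM with the mimic in 22Rv1, so its mimic replicate 3 library was again the lowest, by a smaller margin. XBP1 was at 131, 123 and 124 TPM against 119, 125 and 143 TPM, overlapping groups as well. In 22Rv1 the groups did not overlap for 5 members with the mimic lower (SLC7A5, HSPA5, SDF2L1, HYOU1 and CRELD2), where 4.72% of all genes did so, and for 0 members with the mimic higher, where 4.06% did.

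The ATF4 side of the list behaved otherwise in the same libraries. ATF4 was at 325, 337 and 393 TPM with NC-mimic and 307, 312 and 501 TPM with the mimic in 22Rv1. DDIT3 was at 106, 114 and 270 TPM against 110, 116 and 515 TPM, so replicates 1 and 2 of both groups agreed closely and replicate 3 of both was high. ASNS was at 161, 140 and 318 TPM with NC-mimic and 145, 135 and 332 TPM with the mimic.
TRIB3 was at 84.3, 82.4 and 143 TPM against 84, 86.8 and 176 TPM, and CHAC1 at 7.64, 3.39 and 14.9 TPM against 6.12, 6.08 and 24.2 TPM. In each of these genes the replicate 3 libraries were the highest of their groups. SLC7A11 was at 8.35, 6.87 and 24.2 TPM with NC-mimic and 11.6, 8.51 and 23.5 TPM with the mimic in 22Rv1. The log2 fold changes of these 6 genes were between -0.004 (ATF4) and 0.53 (DDIT3), each smaller than its SE.

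The libraries that carried the same replicate number deviated together in 22Rv1 (correlations of 0.198, 0.167 and 0.355), and the numbers were taken as pairs there. Deviations were from the mean of the 3 libraries of a group. A replicate 3 far off in both groups thus by itself makes the correlations of replicates 1 and 2 positive. Mimic replicate 2 correlated best with NC-mimic replicate 1, however, and not with its own number. The values thus set pair 3 apart, but do not show which libraries of replicates 1 and 2 belong together. With the replicate number as a block, 0 members met the rule in 22Rv1, as without it. Within pairs 1 and 2 the ER folding genes had median log2 CPM differences between mimic and NC-mimic of -0.098 and -0.086, with all 8 below 0 in each, and in pair 3 the median was -1.97, with 7 of 8 below 0. For the stress effectors the 3 medians were -0.04, 0.0036 and 0.61. A split of the roles in opposite directions was seen in pair 3. In pair 1 both medians were below 0, and in pair 2 that of the ER folding genes was near the median of all members, -0.076.

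**Figure D3:**
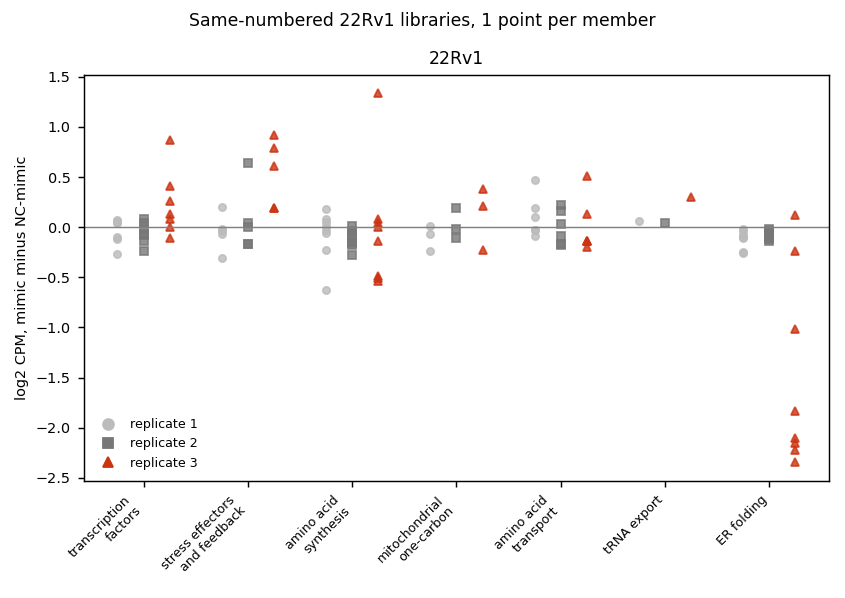
Log2 CPM of the mimic library minus that of the NC-mimic library with the same replicate number (y axis), 1 point per member, by role (x axis), in 22Rv1. The ER folding genes of pair 3 reached -2.35 (PDIA4), while those of pairs 1 and 2 stayed between -0.26 and -0.016.

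Members with the mimic lower in all 3 pairs of 22Rv1 numbered 9 of 38, of which 7 were ER folding genes (HSPA5, HERPUD1, SDF2L1, HYOU1, PDIA4, CRELD2 and MANF) and the others CTH and SLC7A5, where 14.4% of all genes were lower in all 3. CEBPG and XPOT were higher in all 3 pairs, 2 of 38, where 12.6% of all genes were.

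Without the mimic replicate 3 library alone the medians of the ER folding genes and the stress effectors were -0.32 and -0.57, and without the NC-mimic replicate 3 library alone -0.41 and 1.1, so the direction of the stress effectors rested on 1 library. Without the replicate 3 libraries of both 22Rv1 groups the median of the ER folding genes was -0.086 and that of the stress effectors -0.011. SLC7A11 was then the 1 member that met the rule, as higher, with a log2 fold change of 0.36 and an unadjusted p of 0.0308, where 4.57% of all genes met it. Other settings called ER folding genes as lower. With all 12 libraries in 1 fit, or with no filter on low counts, CRELD2, HSPA5, HYOU1, MANF and PDIA4 met the rule, where 6.58% and 1.85% of all genes did. DESeq2, and the fit without mimic replicate 2, called MANF alone.

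The difference of the mimic effect between the lines was tested over all 12 libraries as an interaction. No member met the rule in either direction, where 1.71% of the 18720 genes tested were higher and 1.54% lower in 22Rv1 than in LNCaP, 610 genes had an unadjusted p under 0.05, and 0% of genes had an adjusted p under 0.05. The estimates for the 8 ER folding genes were all below 0 with a median of -0.71. MANF had the smallest unadjusted p among the members, 0.0612, at -0.87 ± 0.42 (SE). Without the replicate 3 libraries of 22Rv1 the median of the ER folding genes was -0.16, and CRELD2, DDIT3 and MANF met the rule as lower, where 6.2% of all genes met it. With the replicate number as a block CTH met it as lower (-0.68, unadjusted p 0.0451), where 4.55% of all genes did.

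Since 22Rv1 replicate 3 stood apart, each replicate 3 library was described against the mean of replicates 1 and 2 of its group, with no test. In the NC-mimic library 7 of 38 members were at least 2-fold higher, where 11.6% of all genes were, and 0 were at least 2-fold lower, where 6.83% of all genes were. In the mimic library 11 of 38 members were at least 2-fold higher, where 14.6% of all genes were, and 5 at least 2-fold lower, where 9.69% were. In LNCaP, 0 members were 2-fold away in either group, where 2.99% of all genes were at least 2-fold higher and 1.81% lower with NC-mimic, and 3.4% and 2.06% with the mimic.

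The genes that were high were of the ATF4 branch in both libraries. PPP1R15A was at 20.5, 17.4 and 71.2 TPM with NC-mimic and 16.4, 19 and 145 TPM with the mimic, that is 3.9-fold and 8.07-fold above replicates 1 and 2 by counts. SESN2, a sensor of leucine that restrains mTORC1, was 2.68-fold and 5.03-fold above them, DDIT3 2.5-fold and 4.6-fold, and CHAC1 3.47-fold and 4.28-fold. CEBPB, a partner of ATF4, was raised alike in both, 2.25-fold and 2.22-fold, and so was ASNS, 2.15-fold and 2.39-fold. ATF4 mRNA was only 1.23-fold and 1.34-fold above replicates 1 and 2, and ATF5, a relative of ATF4, was lower at 0.505-fold and 0.625-fold.

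GPT2, a mitochondrial alanine transaminase, was at 35.1, 38.9 and 36.3 TPM with NC-mimic and 38.8, 35.8 and 97.3 TPM with the mimic, so it was 2.71-fold high in the mimic library and at 0.996-fold in the NC-mimic library. SLC7A11 was high in both, 3.25-fold with NC-mimic and 2.33-fold with the mimic. Amino acid synthesis as a group was not high, with median log2 differences of 0.18 and 0.14, and CTH was at 0.873-fold and 0.839-fold.

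The ER folding genes went opposite ways in the 2 libraries. In the NC-mimic library all 8 were above replicates 1 and 2, from 1.08-fold (HERPUD1) to 1.89-fold (PDIA4), with a median log2 difference of 0.59. In the mimic library 5 of the 8 were at least 2-fold lower, namely HSPA5 at 0.448-fold, MANF at 0.39-fold, PDIA4 at 0.389-fold, CRELD2 at 0.376-fold and SDF2L1 at 0.375-fold, and the median log2 difference was -1.26. DNAJB9, a co-chaperone of HSPA5, was higher at 1.49-fold, HERPUD1 was at 0.938-fold and HYOU1 at 0.79-fold. XBP1 mRNA was at 1.09-fold in the NC-mimic library and 1.02-fold in the mimic library.

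**Figure D4:**
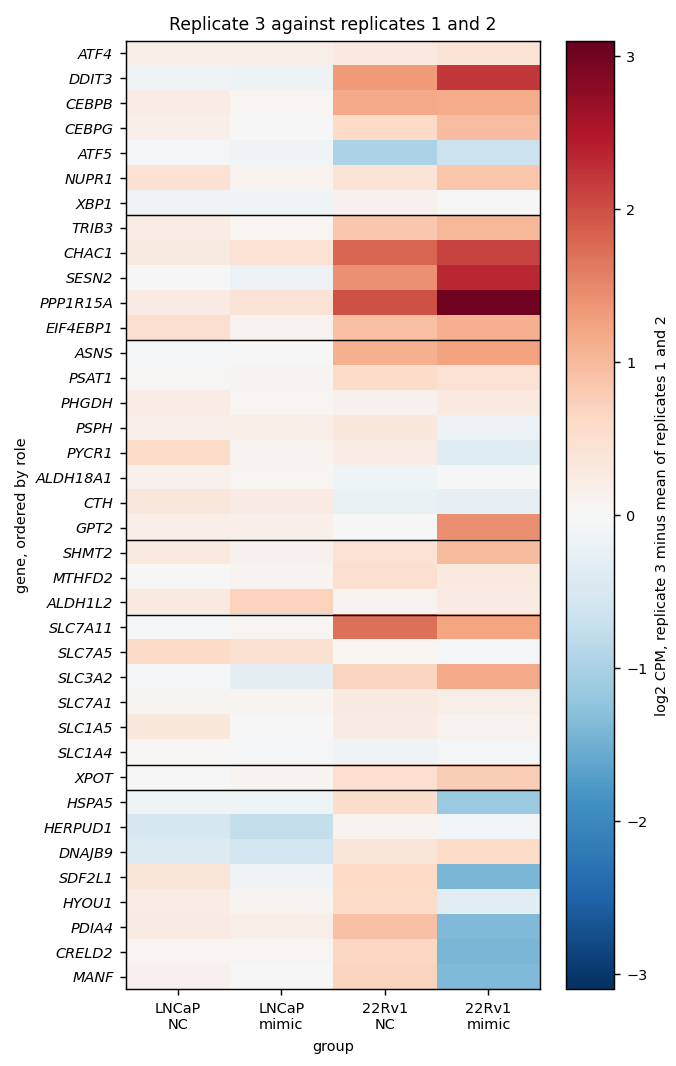
Log2 CPM of replicate 3 minus the mean of replicates 1 and 2 (colour) for the 38 members (rows, ordered by role with lines between roles) in the 4 groups (columns). Stress effectors were high in both 22Rv1 groups, up to 3.01 for PPP1R15A with the mimic, while LNCaP stayed between -0.74 and 0.72. In 22Rv1 all 8 ER folding genes were above 0 with NC-mimic. With the mimic 5 of them were at least 2-fold lower, down to -1.41, while HERPUD1 was at -0.09 and DNAJB9 higher at 0.57.

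The other genes of the pathway, which are no members, were read by list. Of 13 other ATF4 targets 11 were at least 2-fold higher in the mimic library and 7 in the NC-mimic library, where 14.6% and 11.6% of all genes were. Their median log2 differences were 1.98 and 1.03. Of 18 other ER genes 3 were above replicates 1 and 2 in the mimic library and 14 in the NC-mimic library, with medians of -0.32 and 0.21. Of these ER genes 2 and 1 were at least 2-fold lower, near the 9.69% and 6.83% of all genes that were. The 12 tRNA synthetases were all above replicates 1 and 2 in both, with medians of 0.7 and 0.51. Among the ATF4 targets DDIT4, an inhibitor of mTORC1, was 16.8-fold above replicates 1 and 2, GDF15, a secreted stress factor, 14.8-fold and ATF3, a stress-induced transcription factor, 6.96-fold. Among the ER genes of the mimic library HSP90B1 at 0.487-fold, DNAJB11 at 0.534-fold and CALR at 0.557-fold. DERL3 was low in both, at 0.207-fold with the mimic and 0.434-fold with NC-mimic. DDIT4 was at 1.39-fold in the NC-mimic library, against 16.9-fold for GDF15 there. The same mimic library held the high values of the genes known to rise in low oxygen, with VEGFA at 77, 141 and 1468 TPM and NDRG1 at 31.9, 57.1 and 616 TPM over replicates 1, 2 and 3, and the low share of mitochondrially encoded genes. The part of these in the values of the members was not tested.

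The second question was how the members differed between the lines, first with NC-mimic. By an adjusted p under 0.05 with edgeR's quasi-likelihood test, 18 of 38 members were higher in 22Rv1, where 30.9% of the 17497 genes tested were, and 4 were lower, where 27.5% of all genes were. The median log2 fold change of the members was 0.27, and that of all genes 0.015. Mitochondrial one-carbon genes were higher in 3 of 3, transcription factors in 5 of 7, ER folding genes in 4 of 8 and transporters in 3 of 6, and amino acid synthesis was higher in 1 and lower in 3 of 8. The calls of the ER folding genes depended on the setting. Without NC-mimic replicate 1 or replicate 2 of LNCaP, and in 1 fit over all 12 libraries, CRELD2 alone of the 8 passed, and MANF, PDIA4 and SDF2L1 did not. CRELD2 was also the only one higher with limma on log2(TPM + 1) without a TPM filter. Without NC-mimic replicate 3 of 22Rv1 all 4 still passed as higher.

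ALDH1L2 (ENSG00000136010, chr12:105019784-105107643, minus strand) was at 0.27, 0.57 and 1.56 TPM in LNCaP and 33.4, 26.9 and 29 TPM in 22Rv1 with NC-mimic. Its log2 fold change of 6.44 ± 0.15 (SE), with an adjusted p of 1.4e-07, was the largest of the members. Its exons overlap NOPCHAP1 and WASHC4 on the other strand. SLC7A5, the large neutral amino acid transporter, was at 1.96, 2.3 and 3.1 TPM in LNCaP and 73.6, 79.2 and 77.7 TPM in 22Rv1, a log2 fold change of 5.24 ± 0.19 with an adjusted p of 6.1e-07. Its partner SLC3A2, with which it forms a heterodimer, was at 132 ± 11.3 TPM (SD, n = 3) in LNCaP and 148 ± 41.5 TPM in 22Rv1, and its log2 fold change of 0.27 ± 0.18 (SE) did not pass.

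PPP1R15A was at 1.84, 1.74 and 2.08 TPM in LNCaP, against the 17.4 to 71.2 TPM of 22Rv1 with NC-mimic, a log2 fold change of 4.35 ± 0.6 with an adjusted p of 0.00044. Without NC-mimic replicate 3 of 22Rv1, the high library, the log2 fold change was 3.38. SLC1A4, a transporter of alanine, serine and cysteine, was at 5.18, 4.73 and 5.35 TPM in LNCaP and 18.3, 15.1 and 15.2 TPM in 22Rv1, a log2 fold change of 2 ± 0.12. CRELD2 was at 69, 62.7 and 68.9 TPM in LNCaP, against 203 to 328 TPM in 22Rv1, a log2 fold change of 1.9 ± 0.18. These 5 had the largest rise of the members, and the groups overlapped in none of them.

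**Figure D5:**
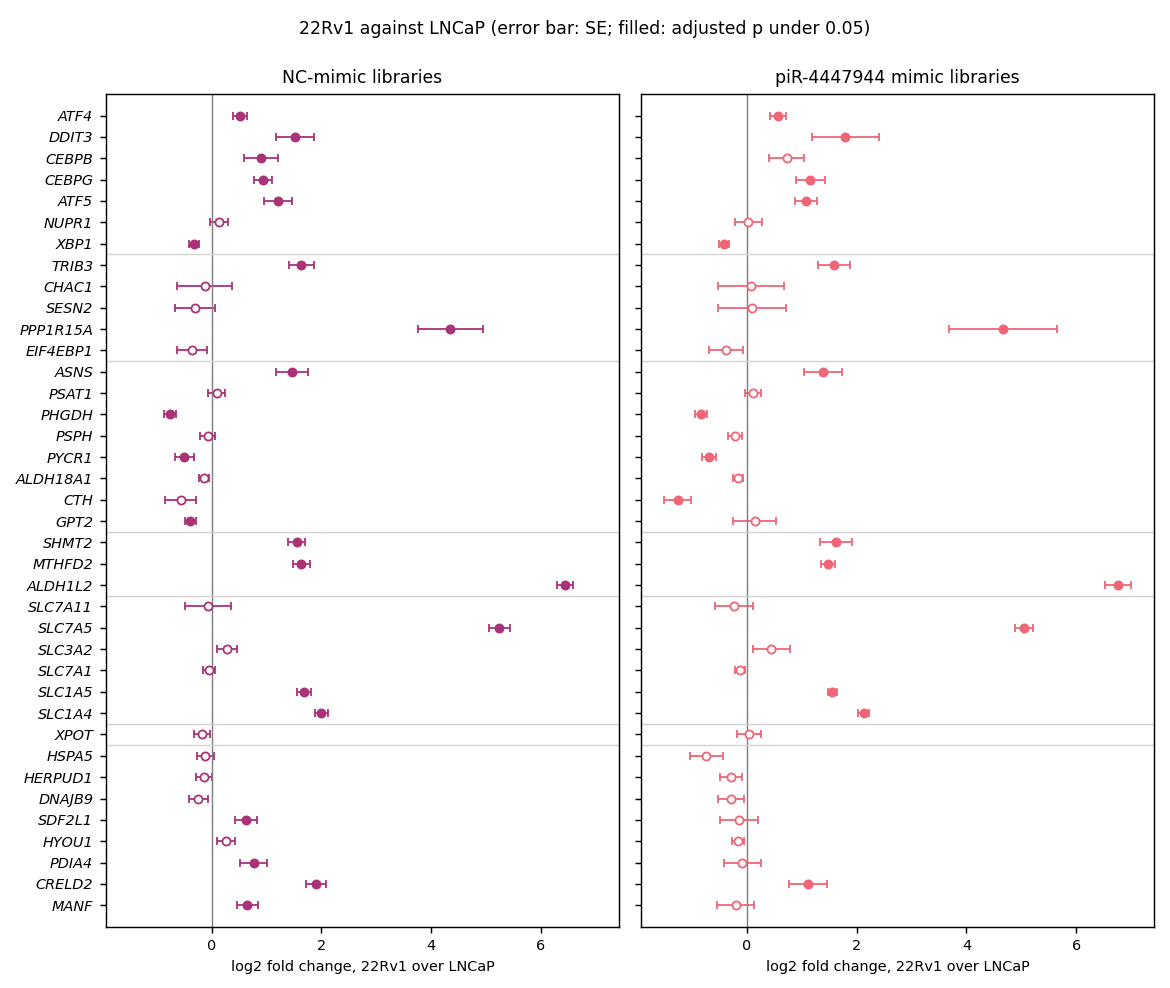
Log2 fold change of 22Rv1 over LNCaP with its SE (x axis, shared by both panels) for the 38 members ordered by role, in NC-mimic libraries (left) and piR-4447944 mimic libraries (right), with filled points for an adjusted p under 0.05. ALDH1L2, SLC7A5 and PPP1R15A stood above 4 in both, and of the ER folding genes 4 were filled with NC-mimic and 1 with the mimic, a count that was 1 with NC-mimic too when LNCaP replicate 1 or 2 was left out.

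ATF4 and its targets DDIT3, ASNS and TRIB3 were higher in 22Rv1 as well. ATF4 had a log2 fold change of 0.52 ± 0.12 (adjusted p 0.0062), DDIT3 of 1.52 ± 0.35 (adjusted p 0.0055), ASNS of 1.46 ± 0.29 (adjusted p 0.0027) and TRIB3 of 1.64 ± 0.23 (adjusted p 0.00047). Without NC-mimic replicate 3 of 22Rv1 they were 0.41, 0.94, 0.99 and 1.31 and still passed, those of DDIT3 being the furthest from each other. SHMT2 and MTHFD2, which make one-carbon units in mitochondria, were higher by 1.55 ± 0.16 and 1.63 ± 0.16, and the glutamine transporter SLC1A5 by 1.69 ± 0.13.

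Lower in 22Rv1 were PHGDH, at 346, 312 and 389 TPM in LNCaP and 184, 173 and 229 TPM in 22Rv1, with a log2 fold change of -0.76 ± 0.11 and an adjusted p of 0.00047. PYCR1, an enzyme of proline synthesis, was at 181, 146 and 238 TPM in LNCaP and 118, 119 and 141 TPM in 22Rv1, with a log2 fold change of -0.5 ± 0.18 and an adjusted p of 0.039. GPT2 was at 58.1, 48.7 and 58.9 TPM in LNCaP, above its 3 values in 22Rv1, with a log2 fold change of -0.39 ± 0.1. XBP1 fell by 0.31 ± 0.09 on the log2 scale. By TPM the groups of these 4 did not overlap, while those of PYCR1 overlapped by CPM. PYCR1 did not pass without NC-mimic replicate 1 or 2 of 22Rv1, or without replicate 1 or 3 of LNCaP. It also did not pass with limma without a TPM filter. XBP1 did not pass without NC-mimic replicate 2 of 22Rv1, or without replicate 1 or 2 of LNCaP. GPT2 did not pass in 1 fit over all 12 libraries, and PHGDH passed in every setting.

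CTH was at 5.8, 4.92 and 6.24 TPM in LNCaP and 5.2, 2.82 and 4.3 TPM in 22Rv1 with NC-mimic, and its log2 fold change of -0.56 ± 0.28 did not pass (adjusted p 0.114). EIF4EBP1, a repressor of cap-dependent translation, was at 211, 158 and 247 TPM in LNCaP and 118, 119 and 223 TPM in 22Rv1, overlapping groups with a log2 fold change of -0.36 ± 0.28. HSPA5 did not pass either, at -0.11 ± 0.16, nor did CHAC1, at -0.13 ± 0.5. The members that did not pass, PSAT1, PSPH, ALDH18A1, NUPR1, SLC7A1, HYOU1 and XPOT among them, lay between -0.56 (CTH) and 0.27 (SLC3A2) on the log2 scale.

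The replicate 3 library moved the lower side most. Without NC-mimic replicate 3 of 22Rv1, 18 members were higher and 11 lower (CHAC1, DNAJB9, EIF4EBP1, GPT2, HSPA5, PHGDH, PYCR1, SESN2, SLC7A11, XBP1 and XPOT), where 66.2% of all genes passed. SESN2 then had a log2 fold change of -0.94 and SLC7A11 of -0.86, against -0.3 ± 0.36 and -0.06 ± 0.42 with it. With the replicate number as a block the same count of members, 18 higher and 4 lower, passed.

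The libraries with piR-4447944 mimic gave a comparison of the lines that shares no library with the first. There 14 members were higher in 22Rv1, where 28.2% of the 17283 genes tested were, and 4 were lower, where 24.2% were. ALDH1L2 was at 1.24, 0.4 and 1.21 TPM in LNCaP and 34.7, 30.9 and 41.6 TPM in 22Rv1, a log2 fold change of 6.76 ± 0.24 (SE). SLC7A5 was at 2.22, 2.32 and 3.17 TPM against 72.4, 74.5 and 72.5 TPM, a log2 fold change of 5.04 ± 0.16. The groups lay as far apart as with NC-mimic.

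PPP1R15A was at 1.74, 2.55 and 2.77 TPM in LNCaP with the mimic, and its log2 fold change was 4.67 ± 0.98 (adjusted p 0.0067). SLC1A4 was at 6.48, 4.26 and 4.28 TPM in LNCaP and 19.2, 19.7 and 17.8 TPM in 22Rv1, a log2 fold change of 2.13 ± 0.1. CRELD2 was at 69.2, 70.6 and 77.1 TPM in LNCaP and overlapped with 22Rv1, where replicate 3 was at 72.3 TPM, and had a log2 fold change of 1.11 ± 0.35 (adjusted p 0.032). CRELD2 was the 1 ER folding gene of 8 that passed, and it did not pass when any library other than mimic replicate 3 of 22Rv1 was left out, nor with limma on TPM or with the replicate block.

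Without mimic replicate 3 of 22Rv1 the log2 fold change of PPP1R15A was 2.91 and that of CRELD2 1.45.

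PHGDH was at 365, 366 and 386 TPM in LNCaP and 199, 187 and 226 TPM in 22Rv1 with the mimic, a log2 fold change of -0.83 ± 0.11. PYCR1 was at 183, 196 and 204 TPM against 146, 126 and 93.6 TPM, a log2 fold change of -0.69 ± 0.13. CTH was at 6.35, 5.35 and 6.97 TPM against 3.9, 2.88 and 2.34 TPM, a log2 fold change of -1.25 ± 0.25 (adjusted p 0.0051), and XBP1 was also lower. In these 4 the groups did not overlap. GPT2, at 48.6, 54.9 and 54 TPM in LNCaP, did not pass with the high library included (0.15 ± 0.39), and without mimic replicate 3 of 22Rv1 its log2 fold change was -0.51. EIF4EBP1 was at 208, 229 and 234 TPM in LNCaP and 137, 113 and 263 TPM in 22Rv1, and it did not pass.

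Without mimic replicate 3 of 22Rv1, 15 members were higher and 14 lower, where 69.5% of all genes passed. Of the leading members ATF4, DDIT3, ASNS and TRIB3 then had log2 fold changes of 0.41, 0.65, 0.83 and 1.15, against 0.57 ± 0.14, 1.8 ± 0.61, 1.39 ± 0.35 and 1.58 ± 0.29 with it, and CHAC1 had -1.01. HSPA5 was then lower, at -0.44, as was DNAJB9, at -0.51, and PDIA4 was higher, at 0.24. With the replicate block, 12 members were higher and 5 lower, without CRELD2 and DDIT3 and with HSPA5. ATF4, DDIT3 and ASNS did not pass without LNCaP mimic replicate 1 or 2, and DDIT3 and ASNS did not pass without LNCaP mimic replicate 3. With limma on TPM, ATF4 and DDIT3 did not pass, nor did ASNS where no TPM filter was set. TRIB3 passed in each of these settings.

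The other genes of the pathway, 62 that are no members, were also read from the fits, in which 61 were tested. With NC-mimic, 11 were higher and 16 lower in 22Rv1, where 30.9% and 27.5% of all genes were, so neither count exceeded the share of all genes. Of the 19 genes listed as sensors and eIF2, 3 were higher and 6 lower. Among those lower were the kinases EIF2AK3 (PERK) and EIF2AK4 (GCN2), which phosphorylate eIF2, at -0.68 and -0.94 on the log2 scale (adjusted p 0.0021 and 8.9e-05 in edgeR). The sensor ERN1 (IRE1) was lower as well, at -1.34 (adjusted p 0.0025). DERL3, of ER-associated degradation, was higher, at 3.91, and DNAJC3, a co-chaperone, at 1.11, while SESN3, a relative of SESN2, was lower, at -4.27. Of the 12 tRNA synthetases listed, EPRS1 was higher and LARS1, NARS1 and TARS1 were lower. Of the 12 tested ATF4 targets outside the members 2 were higher and 4 lower. With the mimic, 9 of the other genes were higher in 22Rv1 and 13 lower, where 28.2% and 24.2% of all genes were, again with DERL3 (3.55) and SESN3 (-3.22) at the ends. Of the 19 sensors and eIF2 genes 5 were then higher and 4 lower.

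With the mimic in LNCaP, 2 of the 61 other genes met the rule, where 1.38% of all genes were higher, ATF3 at 0.34 ± 0.09 (unadjusted p 0.00244) and JDP2, a repressor of the same family, at 0.44 ± 0.18 (unadjusted p 0.0304), both higher and both with an adjusted p of 0.999 by edgeR's quasi-likelihood test. In 22Rv1 it was 1 of the 61, PDIA6, a disulfide isomerase, at -0.49 ± 0.21 (unadjusted p 0.0491), where 0.681% of all genes were lower. In the interaction it was 1 as well, PDIA3, at -0.39 ± 0.17 (unadjusted p 0.0429, same test), where 1.54% were lower. An adjusted p under 0.05 was reached by 0% of genes in either fit.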

How the data were processed

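The authors aligned mRNA reads to hg38 with STAR 2.7.1a, quantified genes with RSEM v1.3.0 and tested them with DESeq2 1.34.0 in R 4.1.1. The expected counts deposited by the authors are estimated reads per gene, not normalized, in which reads that match several genes are divided, and 10 members had counts that were not whole. The TPM deposited by the authors are scaled for gene length and hold no depth. The deposited table of TPM over all libraries was not used here. Trimming, strand and read length are not given in the sources used here.

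The expected counts of 12 libraries were rounded and tested with edgeR 4.0.16 in R 4.3.3 (TMM, filterByExpr, quasi-likelihood test) over all genes, with Benjamini-Hochberg adjustment over each fit. Samples were grouped by line and mimic from their labels. Calls were made in mimic comparisons at the cut-offs of the study (unadjusted p under 0.05, absolute log2 fold change over 0.2), set on edgeR fold changes without the shrinkage that the authors applied, and by an adjusted p under 0.05, and in line comparisons by an adjusted p under 0.05. Standard errors were derived from the estimate and the test statistic. Log2 CPM of single libraries used a prior count of 2. Non-overlap of groups and the exact two-sided permutation test used log2 CPM. The scripts were tested on simulated counts.

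Values in every library are given for ATF4, DDIT3, ASNS, TRIB3, CHAC1, HSPA5, XBP1 and HERPUD1, for members called in a mimic comparison, and for the 5 members with the largest log2 fold change in each direction between lines with NC-mimic. Other members are named where a role group, a count or a replicate 3 library turned on them. Members and lists were chosen with earlier results of these data known. Alternatives were DESeq2 size factors, no low-count filter, a stricter one (10 counts in all libraries), the replicate number as a block, 1 fit over all 12 libraries, DESeq2 1.42.0 with shrunken fold changes, limma 3.58.1 on log2(TPM + 1) and log2(TPM + 0.1) of genes at 1 TPM or more in 3 libraries, or of all genes, and leaving libraries out. Same-numbered libraries correlated in their deviations from group means at 0.198, 0.167 and 0.355 in 22Rv1, which is from the values alone, and at 0.0211, 0.00504 and 0.189 in LNCaP, where numbers were not taken as pairs. Mimic replicate 2 of 22Rv1 correlated best with NC-mimic replicate 1, and in LNCaP only replicate 3 correlated best with its own number. Gene positions are from the GENCODE annotation of hg38. Libraries held 12161091 to 22179601 expected counts, and intervals for counting error were not computed.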

Additional observations from a re-analysis of the deposited data

Results flagged for a closer look

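CRELD2 was higher with piR-4447944 mimic in every LNCaP library and lower in every 22Rv1 library than in the libraries with NC-mimic. The gaps were narrow. In LNCaP the highest NC-mimic library was at 69.01 TPM and the lowest mimic library at 69.24 TPM. In 22Rv1 the lowest NC-mimic library was at 203.07 TPM and the highest mimic library at 200.34 TPM. With the replicate block the LNCaP log2 fold change was 0.11, with an unadjusted p of 0.149 in edgeR. The log2 difference of the mimic effect, 22Rv1 minus LNCaP, was -0.80 ± 0.42 (SE) by edgeR's quasi-likelihood test over all 12 libraries. Its unadjusted p of 0.081 missed the threshold, and its adjusted p was 0.99998. The estimates of all 8 ER folding genes were below 0 in that fit, so the direction was not particular to CRELD2. The mimic replicate 3 library of 22Rv1 had 72.3 TPM, against 198 and 200 TPM in the others. Without the replicate 3 libraries of 22Rv1 the difference met the cut-offs (unadjusted p under 0.05 and absolute log2 over 0.2), as did a larger share of all genes than in the main fit. The log2 fold change with the mimic in 22Rv1 was then only -0.091, with an unadjusted p of 0.256 in edgeR. The cause was not tested.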

How the results depend on the processing

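Of the counts of members called, 63 recomputed under an alternative stayed within 1.5 times and 19 did not. Single-member values were compared for DDIT3 and SLC7A11 in LNCaP. In the line comparisons they were compared for the leading members and those with the largest passing differences with NC-mimic. Of these values, 448 kept direction and call, 38 lost and 10 gained the call, and 13 changed direction. The 22Rv1 mimic comparison and the interaction gave no such value, since no member was called there. In 22Rv1 the mimic was higher by log2 fold change for 16 of 38 members. That was 3 without mimic replicate 3 and 23 without NC-mimic replicate 3. In LNCaP the count with the mimic was 0 with all 12 libraries in 1 fit and 0 by DESeq2, 3 with the replicate block (2 without), and 2 to 10 when 1 library was left out. In 22Rv1 it was 5 with no filter, 5 with all 12 libraries in 1 fit, 1 by DESeq2 (MANF), 1 without replicate 3 of both groups, 0 with the replicate block, and 0 to 1 with 1 library left out. For the interaction it was 5 with no filter, 1 with the replicate block (CTH), 1 by DESeq2, 3 without replicate 3 of both 22Rv1 groups and 0 to 4 with 1 library left out. The line comparison with the mimic called 14 to 29 members with 1 library left out, and that with NC-mimic 16 to 29. The replicate block changed no other call count by over 1.5 times. By direction, CHAC1 in the NC-mimic line comparison (-0.13) was 0.10 and 0.23 without 22Rv1 NC-mimic replicates 1 and 2, within -0.96 to 0.23 over all libraries left out. In the line comparison with the mimic CHAC1 (0.08) was -0.26 with the block, -0.16 with limma on log2(TPM + 1) with or without filter, -0.20 on log2(TPM + 0.1), -0.10 without LNCaP mimic replicate 1 and -1.01 without 22Rv1 mimic replicate 3, within -1.01 to 0.42 over all left out. GPT2 there (0.15) was -0.027 with the block, -0.029 on log2(TPM + 1), -0.031 on log2(TPM + 0.1) and -0.51 without 22Rv1 mimic replicate 3, within -0.51 to 0.39. The cause was not tested. With a library left out, 1 group has 2 libraries. Every member had at least 19 counts in every library, and the spread of the 22Rv1 libraries sets the width of their errors.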
